A study of Mus musculus with 12 samples.

Results

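The Ifit genes encode interferon-induced proteins with tetratricopeptide repeats, and in the mouse they lie side by side on chromosome 19. In the medial prefrontal cortex (PFC) of mice raised conventionally or without microbes, the members of this cluster did not move as a block. Ifit3 and its neighbour Ifit1bl1 were almost undetected in germ-free mice and were back at conventional levels in 3 of 4 libraries of mice colonized after weaning, whereas Ifit2, at the edge of the cluster, was higher in every library of colonized mice than in any conventional library. The members were the 6 rows (Ifit2, Ifit3, Ifit1bl1, Ifit3b, Ifit1bl2 and Ifit1) of the deposited count table that carry the identifiers of the Ifit genes of this cluster, out of 41388 genes. The cluster was selected on measured values, namely the changes of Ifit3 and Ifit1bl1 between germ-free and conventional mice and between colonized and germ-free mice, so those differences are given below as a description, without p-values, and any count of calls in these contrasts describes the choice and supports nothing.

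PolyA-enriched RNA from male Swiss Webster mice, an outbred strain, was sequenced at an age of 10 weeks in 3 groups of 4 libraries, each made from RNA pooled from 2 to 3 animals. CON mice were raised conventionally, GF mice were kept germ-free in isolators for life, and exGF mice were GF mice that left the isolators on postnatal day 21 and were housed near CON mice, where microbes from the surroundings colonized them. All groups ate the same autoclaved diet. CON and GF mice came from separate breeding pairs, so microbial status and colony origin cannot be told apart in the comparison of GF with CON, nor in that of exGF with CON. GF and exGF mice came from the GF colony, but GF mice stayed in isolators while exGF mice, like CON mice, lived in the standard animal unit. Microbial status and housing therefore cannot be told apart in exGF against GF or in GF against CON. No genotype, transgene or drug was part of the design.

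Type I interferons bind the receptor IFNAR, which through JAK kinases and the transcription factors they activate switches on genes whose promoters hold an interferon-stimulated response element. Ifit genes are among the targets known for the strongest response. Their proteins lie in the cytosol and limit viruses: IFIT1 binds viral RNA whose cap lacks a methyl group, IFIT2 binds RNA and other IFIT proteins, and the proteins of the IFIT3 type act as partners in IFIT complexes. Ifit1bl1 and Ifit1bl2 are mouse genes named for their likeness to Ifit1, and less is known of what they do. In healthy brain tissue these genes are usually low and can be induced in neurons, glia and vessels when interferon is present.

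The cluster spans 99.3 kb of chromosome 19 (GRCm38, chr19:34550694-34650009). In order of position it holds Ifit2 (ENSMUSG00000045932, chr19:34550694-34576419, plus strand), Ifit3 (ENSMUSG00000074896, chr19:34583531-34588731, plus strand) and Ifit1bl1 (ENSMUSG00000079339, chr19:34592891-34601956, minus strand). Then follow Ifit3b (ENSMUSG00000062488, chr19:34607970-34613401, plus strand), Ifit1bl2 (ENSMUSG00000067297, chr19:34617049-34640743, minus strand) and Ifit1 (ENSMUSG00000034459, chr19:34640871-34650009, plus strand). All 6 are annotated as protein coding, and no exon base of any of them lies in an exon of another annotated gene. The 2 genes with the deepest loss in GF, Ifit3 and Ifit1bl1, are next to each other, with 4159 bases between them on opposite strands. Ifit1bl2 and Ifit1 run away from each other from starts only 127 bases apart.

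Near-identical copies bear on how these genes can be counted, because read pairs that align to several places were not counted on any gene. Over the 1209 coding bases of Ifit3 and Ifit3b, 1198 were identical and 11 differed, an identity of 99.1%. The stretch of 60 coding bases with the most differences between them, coding bases 229 to 288 of each, is printed here to show how little separates the pair, with the differing bases in capitals.
Ifit3 (chr19:34587284-34587343, plus strand): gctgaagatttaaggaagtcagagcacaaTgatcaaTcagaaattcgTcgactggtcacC
Ifit3b (chr19:34611654-34611713, plus strand): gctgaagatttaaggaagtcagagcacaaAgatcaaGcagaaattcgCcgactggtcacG
Ifit1bl1 and Ifit1bl2 were 88.3% identical over 1398 aligned coding bases, and a stretch of the same length with the most differences holds 21 of them (coding bases 81 to 140, differing bases in capitals).
Ifit1bl1 (chr19:34594916-34594975, minus strand): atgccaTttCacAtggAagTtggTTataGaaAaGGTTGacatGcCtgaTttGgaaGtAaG
Ifit1bl2 (chr19:34620075-34620134, minus strand): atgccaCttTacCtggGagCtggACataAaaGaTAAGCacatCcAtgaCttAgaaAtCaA
Of the stretches of 100 bases in the annotated transcript of Ifit3, 31.7% also occur in Ifit3b, and 27.4% of those of Ifit3b occur in Ifit3. At a length of 31 bases these shares were 61.8% and 54.1%. The other members were better separated: 3.29% of the stretches of 100 bases in Ifit1, 2.91% in Ifit1bl2 and 0.51% in Ifit1bl1 occur in another member, and none in Ifit2. At 31 bases the shares were 9.62% in Ifit1, 15.8% in Ifit1bl2 and 19.3% in Ifit1bl1, and again none in Ifit2. For Ifit3 and Ifit3b the counts therefore come from the parts of their exons that differ, and how pairs spanning the shared part were placed cannot be seen in a count table. Their levels are uncertain for that reason. Ifit2 shares no stretch at either length, and Ifit1bl1 shares almost none of 100 bases, though shorter stretches of Ifit1bl1 are shared.

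**Figure D1:**
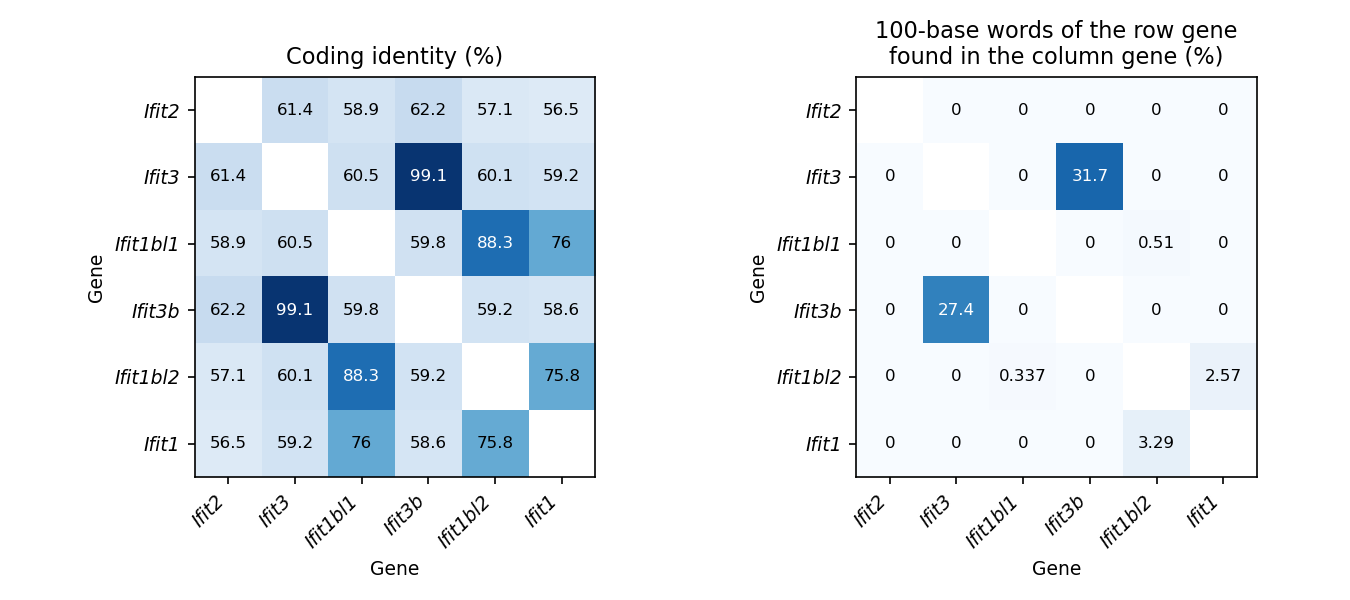
Coding identity in percent between each pair of members (left) and the percent of stretches of 100 bases in the transcripts of the row gene that also occur in the column gene (right). Ifit3 and Ifit3b stand out with 99.1% identity and 31.7% and 27.4% shared stretches, and the row of Ifit2 holds only 0 on the right.

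The promoters show what the members share beyond their exons. The bases just upstream of the first annotated RefSeq start (GRCm38.p6) are printed for the pair of copies, for Ifit1bl1, for Ifit1 and for Ifit2, 5′ to 3′ on the strand of each gene, and end at the last base before the start. Capitals mark matches to the core of an interferon-stimulated response element, searched on both strands as GAAA, any 2 bases, GAAA (read as TTTC, any 2 bases, TTTC on the other strand). Except for Ifit2, each begins 20 bases before its first match.
Ifit3 (chr19:34583353-34583528, plus strand): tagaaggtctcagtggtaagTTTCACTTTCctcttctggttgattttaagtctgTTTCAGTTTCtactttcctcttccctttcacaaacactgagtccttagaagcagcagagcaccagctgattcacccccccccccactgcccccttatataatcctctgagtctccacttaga
Ifit3b (chr19:34607749-34607956, plus strand): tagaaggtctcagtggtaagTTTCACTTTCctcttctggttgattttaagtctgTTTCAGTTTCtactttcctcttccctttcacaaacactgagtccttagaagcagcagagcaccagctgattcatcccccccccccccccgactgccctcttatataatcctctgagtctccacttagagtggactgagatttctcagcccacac
Ifit1bl1 (chr19:34601969-34602092, minus strand): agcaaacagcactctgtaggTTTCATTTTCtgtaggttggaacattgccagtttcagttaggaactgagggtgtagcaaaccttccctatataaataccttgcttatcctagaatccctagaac
Ifit1 (chr19:34640765-34640888, plus strand): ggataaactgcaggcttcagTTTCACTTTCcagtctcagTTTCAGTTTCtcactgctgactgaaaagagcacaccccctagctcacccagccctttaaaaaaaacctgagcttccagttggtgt
Ifit2 (chr19:34550444-34550693, plus strand): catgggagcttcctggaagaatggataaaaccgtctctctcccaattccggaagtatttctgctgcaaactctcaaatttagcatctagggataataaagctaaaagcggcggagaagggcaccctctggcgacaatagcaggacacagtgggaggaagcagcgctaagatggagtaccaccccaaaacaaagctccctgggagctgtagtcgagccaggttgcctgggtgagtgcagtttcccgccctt
Ifit3, Ifit3b and Ifit1 each held 2 matches, and Ifit1bl1 held 1. The window of the first start of Ifit1bl2 held the same pair of matches as that of Ifit1, since these diverging genes share the stretch between them, and the window of its second start held 0. Neither window of Ifit2, at starts chr19:34550694 and chr19:34551088, held a match within 250 bases before and 50 bases after its start. Later exons of Ifit2 begin 12.2 kb and more from its first base. The bases before them were not searched, so a match elsewhere in the gene was not tested. Among 32851 promoter windows of this length in the RefSeq table, 3.44% held at least 1 match and 0.225% held 2 or more. Over 260 aligned bases the promoter windows of Ifit3 and Ifit3b differed at 2 positions aside from gaps, an identity of 99.2%. A match is a run of letters and was not tested as a binding site.

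The levels are given as CPM, the count of a gene relative to all pairs counted on genes in the library, after scaling of libraries by the TMM method of edgeR. The gene counts of a CON library totalled between 22757169 and 29134760, those of a GF library between 13280926 and 23465074 and those of an exGF library between 22702599 and 28615407. The GF median of 18818716 was the lowest of the 3 groups, though GF replicate 2 was deeper than CON replicate 2 and GFR2. The columns of the exGF libraries are called GFR1 to GFR4 and were not matched to single samples. Over all tested genes GFR1 deviated from the other exGF libraries by a root mean square of 0.423 (log2). That was the largest deviation in exGF, against 0.349, 0.312 and 0.385 in GFR2, GFR3 and GFR4. The range over all 12 libraries was 0.312 to 0.512, with GF replicate 1 the highest. Marker genes of neurons summed to between 6325 and 8413 CPM in each library, as cortex tissue should show, and no marker of neurons, microglia, endothelium, astrocytes, oligodendrocytes, meninges or choroid plexus was at 0 throughout a group.

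Ifit3, whose protein is a partner in IFIT complexes, had 71, 143, 50 and 97 counts in CON replicates 1 to 4, 6, 4, 4 and 8 in GF replicates 1 to 4 and 12, 53, 108 and 130 in GFR1 to GFR4. On the CPM scale these were 2.91, 6.10, 1.70 and 3.69 in CON, 0.446, 0.179, 0.215 and 0.440 in GF and 0.497, 2.29, 3.81 and 4.42 in exGF. All GF libraries lay below all CON libraries, and all exGF libraries lay above all GF libraries, but GFR1 stood just above the highest GF library while GFR2, GFR3 and GFR4 lay within the CON range. The means were 3.60 ± 1.85 CPM for CON, 0.320 ± 0.143 for GF and 2.76 ± 1.75 for exGF (SD, n = 4 each). The fitted log2 fold change of Ifit3 was -3.52 (SE 0.45) in GF against CON and 3.16 (SE 0.60) in exGF against GF.

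Ifit1bl1 showed the sharpest contrast, with 39, 52, 38 and 87 counts in the CON libraries, 2, 1, 0 and 0 in the GF libraries and 0, 38, 46 and 65 in GFR1 to GFR4. In CPM the CON libraries held 1.60, 2.22, 1.30 and 3.31 and the exGF libraries 0, 1.64, 1.62 and 2.21. Every GF library was at or under a floor of 3 counts, and so was GFR1, whereas the other 3 exGF libraries lay within the CON range. With 3 counts taken as the floor in each GF library, the CON mean of 2.11 ± 0.891 CPM (SD, n = 4) was at least 12.3-fold higher than GF. By the same floor it was at least 17.0-fold higher than GFR1. The 4 GF and 4 exGF values of Ifit1bl1 overlapped through GFR1 alone.

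Both genes thus put GFR1 with the GF libraries. Without GFR1 the exGF mean was 3.51 ± 1.10 CPM for Ifit3 and 1.83 ± 0.335 CPM for Ifit1bl1 (SD, n = 3). For Ifit2 and Ifit1bl2 GFR1 was not set apart in this way: at 17.8 and 0.911 CPM it lay among the other exGF libraries. For Ifit1 it was the highest of them at 2.69. For Ifit3b GFR1 was the lowest exGF library at 1.70 CPM, against 2.68, 3.53 and 2.995 in GFR2 to GFR4. It was the only exGF library of Ifit3b within the CON range (up to 1.92) and within the GF range (up to 2.24).

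**Figure D2:**
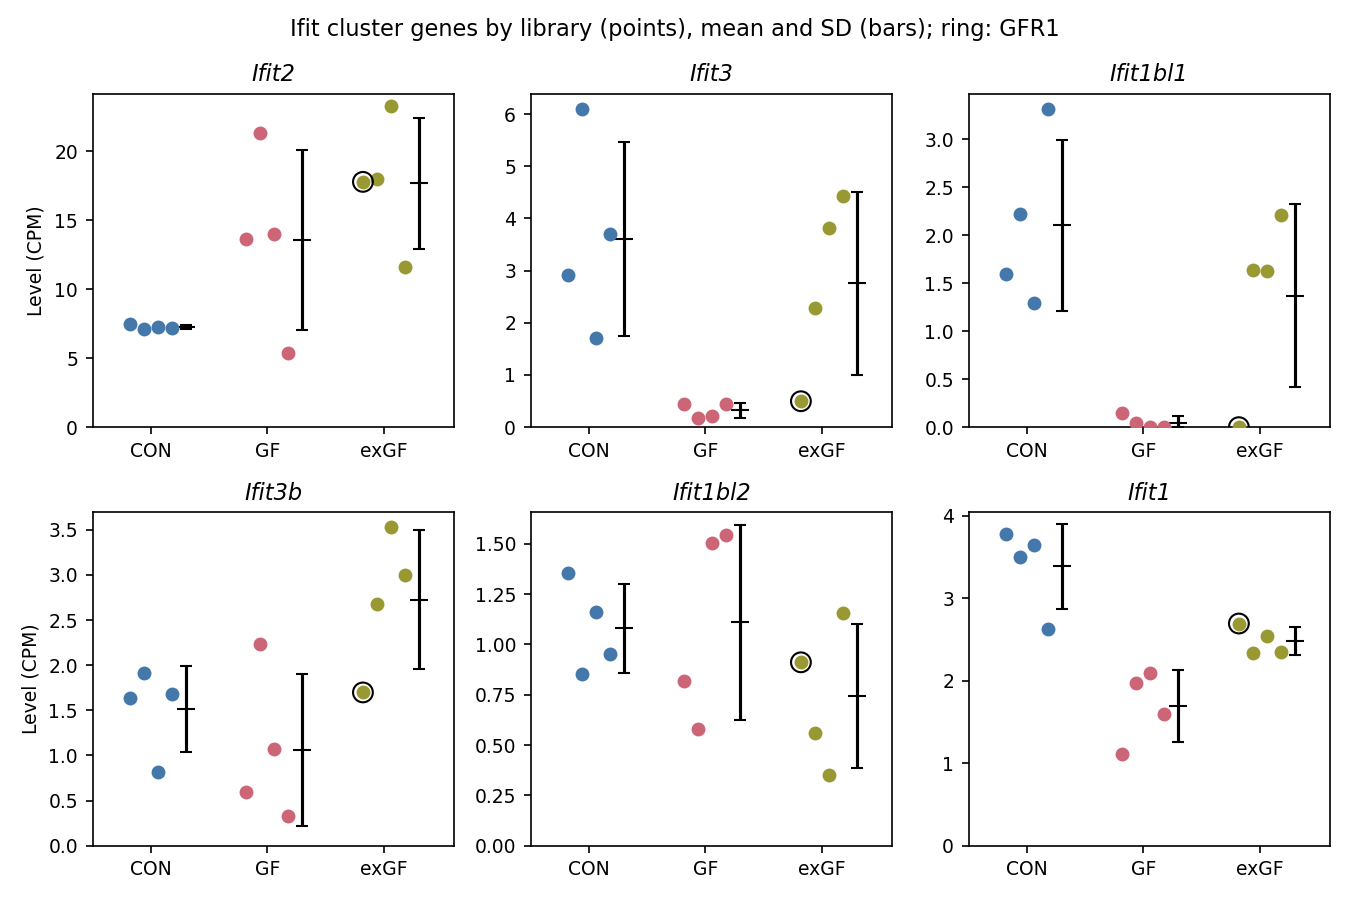
Level in CPM of each member in the 12 libraries, by group, on separate linear axes that start at 0. Points are libraries, the horizontal dash and bar are the group mean and SD (n = 4, cut at 0 where the SD exceeds the mean), and the ring marks GFR1. GFR1 lies with the GF libraries for Ifit3 and Ifit1bl1, is the lowest exGF library for Ifit3b and is the highest for Ifit1.

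Ifit2, an RNA-binding member of the family, was the most abundant in reads. It had 182, 167, 212 and 189 counts in CON, 183, 477, 261 and 98 in GF and 429, 416, 659 and 341 in exGF. In CPM these were 7.46, 7.12, 7.23 and 7.20 in CON, 13.6, 21.3, 14.01 and 5.39 in GF and 17.8, 17.96, 23.3 and 11.6 in exGF. The coefficient of variation was 2.04% in CON, against 48.0% in GF and 27.0% in exGF. Counting error alone at 167 to 212 counts is larger than the CON value. The small CON spread is therefore no measure of how much Ifit2 varies between CON pools. All 4 exGF libraries lay above all CON libraries, and 3 of 4 GF libraries did, GF replicate 4 being lower. The means were 7.25 ± 0.148 CPM for CON, 13.6 ± 6.52 for GF and 17.7 ± 4.77 for exGF (SD, n = 4 each).

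Ifit1, which binds viral RNA caps, had 92, 82, 107 and 69 counts in CON, 15, 44, 39 and 29 in GF and 65, 54, 72 and 69 in exGF. The CPM values were 3.77, 3.50, 3.65 and 2.63 in CON, 1.11, 1.97, 2.09 and 1.60 in GF and 2.69, 2.33, 2.54 and 2.35 in exGF. All GF libraries lay below all CON libraries and below all exGF libraries, and the exGF values fell between, overlapping CON only through CON replicate 4. The fitted log2 fold change of Ifit1 was -0.98 (SE 0.23) in GF against CON and 0.53 (SE 0.23) in exGF against GF.

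Ifit3b, the near-identical copy of Ifit3, showed another pattern across libraries. Its counts were 40, 45, 24 and 44 in CON, 8, 50, 20 and 6 in GF and 41, 62, 100 and 88 in exGF. The CPM values were 1.64, 1.92, 0.818 and 1.68 in CON, 0.595, 2.24, 1.07 and 0.330 in GF and 1.70, 2.68, 3.53 and 2.995 in exGF. GF replicate 2 was above every CON library for Ifit3b, and its GF and CON values overlapped, as did those of exGF and CON. Fitted log2 fold changes of Ifit3b were -0.45 (SE 0.46) in GF against CON and 1.30 (SE 0.42) in exGF against GF.

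Since both copies were counted in the same libraries, their ratio does not depend on library scaling. The count of Ifit3 divided by that of Ifit3b was 1.77, 3.18, 2.08 and 2.20 in CON, 0.750, 0.0800, 0.200 and 1.33 in GF and 0.293, 0.855, 1.08 and 1.48 in exGF. Ifit3 outnumbered Ifit3b in all 4 CON libraries and in 1 of 4 GF and 2 of 4 exGF libraries, and no GF or exGF ratio reached the lowest CON ratio. The ratio was chosen after its values were seen and is given as a description. The count of Ifit1 divided by that of Ifit2, a pair that shares no stretch of 31 bases, was 0.505, 0.491, 0.505 and 0.365 in CON, 0.0820, 0.0922, 0.149 and 0.296 in GF and 0.152, 0.130, 0.109 and 0.202 in exGF. Here too every GF and exGF ratio was under every CON ratio. For Ifit3 divided by Ifit2 every GF ratio was under every CON ratio, but exGF overlapped CON, with 0.381 in GFR4 and 0.236 in CON replicate 3. These ratios are likewise a description, and the share of other gene pairs set apart in this way was not computed.

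Ifit1bl2 was the lowest member in CON and exGF, with 33, 20, 34 and 25 counts in CON, 11, 13, 28 and 28 in GF and 22, 13, 10 and 34 in exGF. Its means were 1.08 ± 0.223 CPM for CON, 1.11 ± 0.485 for GF and 0.746 ± 0.358 for exGF (SD, n = 4 each), and all groups overlapped. It shares the stretch between its start and that of Ifit1, yet Ifit1 separated GF from CON by library and Ifit1bl2 did not. Its fitted log2 fold change in GF against CON was 0.039 (SE 0.35), with a sign that depended on which library was left out.

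Per kilobase of exon the order of the members changed between groups. In CON the mean was 2.06 ± 1.06 CPM per kilobase for Ifit3 and 1.85 ± 0.0376 for Ifit2, which did not differ beyond their spread, followed by 1.27 ± 0.195 for Ifit1, 0.932 ± 0.394 for Ifit1bl1, 0.756 ± 0.240 for Ifit3b and 0.320 ± 0.0662 for Ifit1bl2 (SD, n = 4). The range of Ifit1bl1 overlapped those of Ifit1 and Ifit3b, and all 3 lay under Ifit2 and above Ifit1bl2. In GF the order was Ifit2 at 3.46 ± 1.66, Ifit1 at 0.638 ± 0.166, Ifit3b at 0.529 ± 0.422, Ifit1bl2 at 0.330 ± 0.144, then Ifit3 at 0.183 ± 0.0819, with Ifit1bl1 last and at the floor. From Ifit1 to Ifit3 each overlapped the next, and none of these reached the lowest Ifit2 value. In exGF Ifit2 led at 4.49 ± 1.21 CPM per kilobase, above Ifit3 at 1.58 ± 1.005 and Ifit3b at 1.36 ± 0.385, which did not differ beyond their spread. Next by mean came Ifit1 at 0.933 ± 0.0646 and Ifit1bl1 at 0.606 ± 0.422, which overlapped, and the range of Ifit1 lay within those of Ifit3 and Ifit3b. Ifit1bl2 was last at 0.221 ± 0.106, within the range of Ifit1bl1. Dividing by the number of stretches of 100 bases found in no other gene, in place of exon length, raised Ifit3 in CON to 3.20 per kilobase and Ifit3b in exGF to 1.97. It also put Ifit3b above Ifit1bl1 in CON and above Ifit1 in GF, and left the other places as they were.

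**Figure D3:**
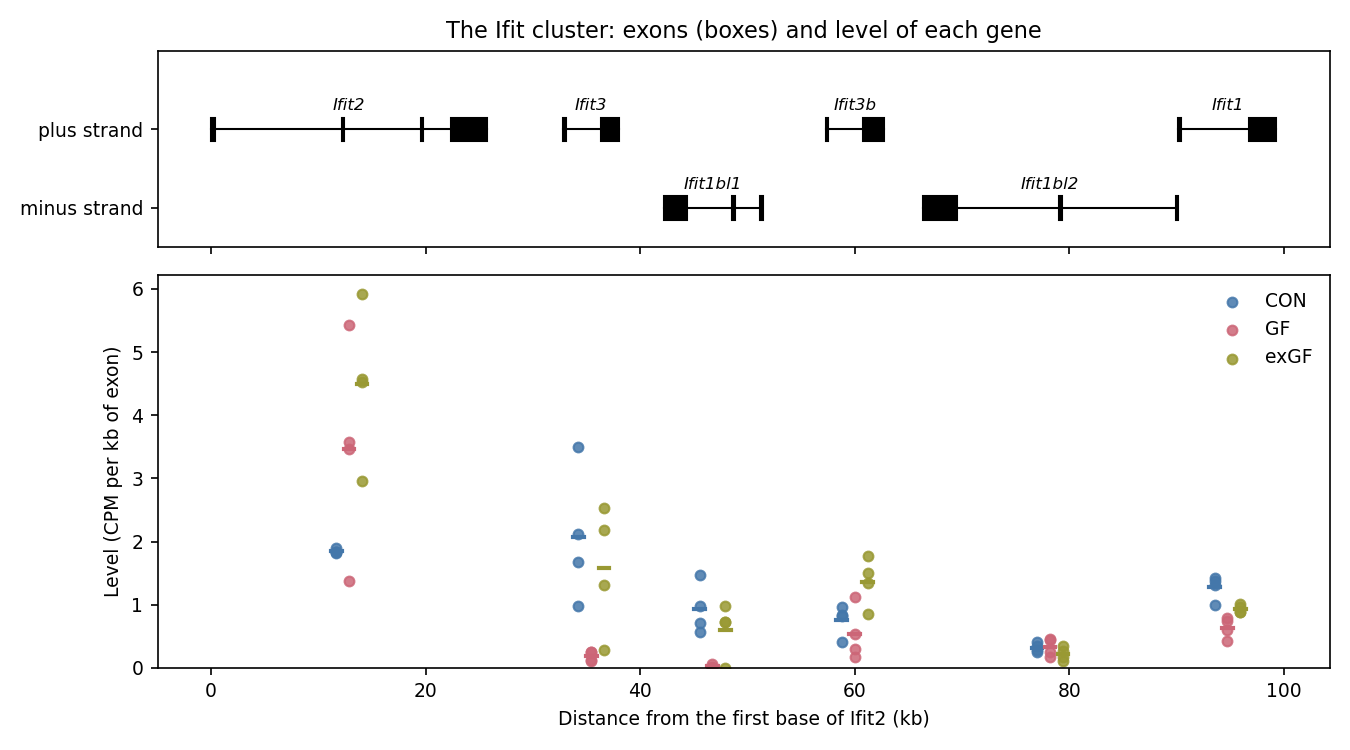
The cluster drawn to scale as distance in kb from the first base of Ifit2, with exons as boxes on each strand (top), and the level of each gene in CPM per kilobase of exon below it (bottom), where points are libraries and dashes are group means. Points are spread sideways by group, and the drop in GF is seen at the adjacent genes Ifit3 and Ifit1bl1 while Ifit2 to their left lies above the CON libraries in 3 GF and 4 exGF libraries.

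The summed level of the 6 genes does not show the differences among members. It was 18.9 ± 2.41 CPM for CON, 17.8 ± 7.02 for GF and 27.7 ± 5.20 for exGF (SD, n = 4 each), and the lowest exGF sum of 23.6 exceeded the highest CON sum of 21.7. Ifit2 supplied between 32.8% and 45.6% of the sum in CON libraries, between 58.0% and 81.3% in GF libraries and between 46.9% and 75.4% in exGF libraries, so that its share was higher in every GF and exGF library than in any CON library. The sum includes Ifit3 and Ifit1bl1, whose loss in GF led to the choice of the cluster, so the share in GF partly restates that choice. GF replicate 4 had a share of 58.0% although its Ifit2 level of 5.39 CPM was below every CON library.

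**Figure D4:**
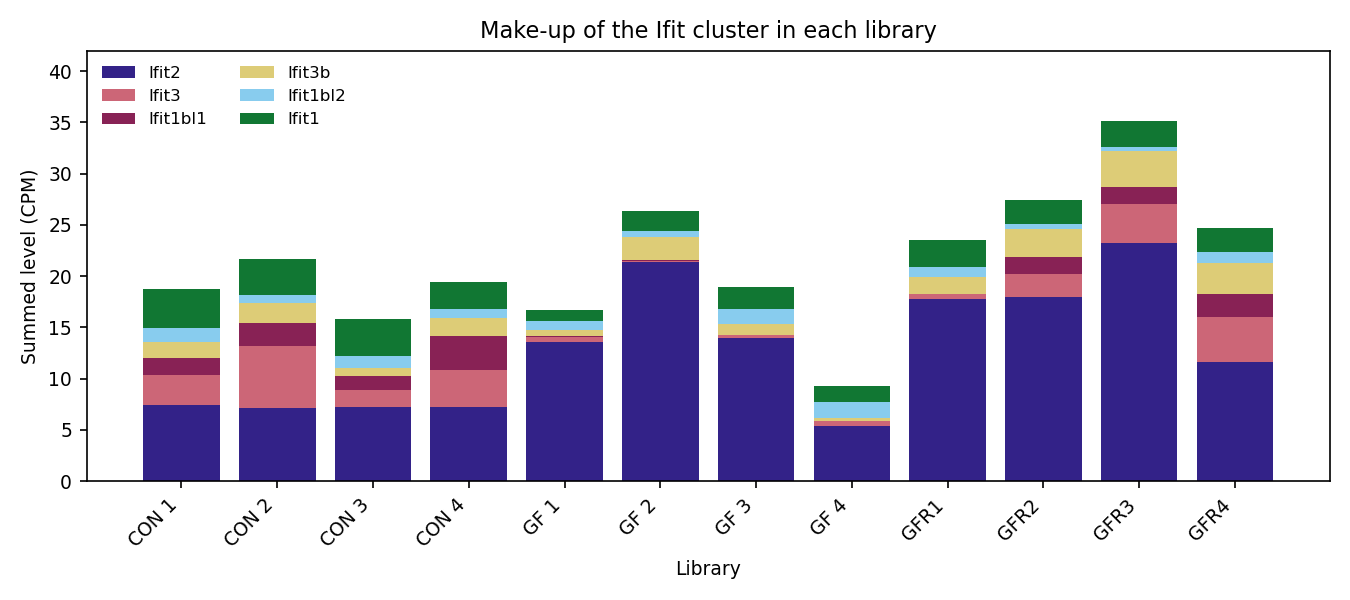
Stacked bars of the summed level in CPM of the 6 members in each library, starting at 0. Ifit2 (lowest segment) makes up at most 45.6% of a CON bar and at least 58.0% of a GF bar, and the segments of Ifit3 and Ifit1bl1 are nearly lost in the GF bars and in GFR1.

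For the comparisons, edgeR's quasi-likelihood test was fitted over all genes of the table for each pair of groups, and a gene was called at a Benjamini-Hochberg adjusted p under 0.1. In GF against CON all 6 members were tested and 2, Ifit3 and Ifit1bl1, were called lower, where 0.251% of all 15542 tested genes were called in either direction. Both passed the filter on low counts only through the CON libraries, and this contrast chose the cluster, so the count describes the choice. The members Ifit3, Ifit1bl1 and Ifit1 (3 of 6) had every GF library below every CON library, as had 2.55% of all tested genes, and 0 members had every GF library above, as had 2.53%. Ifit2 was not called, with a log2 fold change of 0.91 (SE 0.28), although leaving out GF replicate 4 alone brought it to 1.18 and past the threshold. Ifit1 was not called in this fit and was called lower by DESeq2.

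The contrast of exGF against CON shares both its CON and its exGF libraries with the contrasts that chose the cluster, so it is not independent of that choice. In it all 6 members were tested and 1 was called, where 0.0696% of 15813 tested genes were called. Ifit2 was 2.42-fold higher in exGF, a log2 fold change of 1.27 (SE 0.17) at a Benjamini-Hochberg adjusted p = 0.0139 in the edgeR fit, and it was higher in 4 of 4 exGF libraries than in any CON library. Every exGF library lay above every CON library in 1 member (Ifit2) and in 1.78% of all tested genes, and below in 0 members and in 1.52%. The call of Ifit2 held when any single library was left out and was lost when all 12 libraries shared one estimate of the spread, at an adjusted p of 0.187 in edgeR and 0.111 in DESeq2 (range over all alternatives, 2.1e-08 to 0.187). Ifit3b and Ifit1 missed the threshold, with log2 fold changes of 0.86 (SE 0.29) and -0.46 (SE 0.18). Ifit3 at -0.37 (SE 0.48), Ifit1bl1 at -0.60 (SE 0.59) and Ifit1bl2 at -0.53 (SE 0.35) were not called either, and their standard errors leave room for changes in both directions. The value of Ifit3 was -0.013 without GFR1 and 0.018 without CON replicate 2.

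In exGF against GF, 5 members passed the filter and 0 were called, where 0% of 15569 tested genes passed in the edgeR fit. At an unadjusted p under 0.05 these counts were 3 of 5 members (Ifit3, Ifit3b and Ifit1) and 1035 of all genes (6.65%). The change of Ifit3 in this contrast helped choose the cluster, and Ifit3 held only 4 to 8 counts in the GF libraries. The count of members under 0.05 thus describes the choice as well and supports nothing. Ifit1bl1 was removed by the filter because only 3 of the 8 libraries held more than 3 counts of it. Every exGF library lay above every GF library in 2 members, Ifit3 and Ifit1, and in 1.77% of all tested genes, and below in 0 members and in 1.55%. The count of calls moved with GFR1: without it, 2 members, Ifit3 and Ifit1bl1, were called higher in exGF among 7 called genes of 15726 (0.0445%), with a log2 fold change of 3.50 (SE 0.37) for Ifit3. GFR1 was the exGF library in which these very genes were low, both then passed the filter only through the exGF libraries, and this contrast took part in the choice of the cluster, so these calls describe the choice, as does the call of Ifit3 by DESeq2 with all libraries kept. For Ifit2 the fitted change was 0.37 (SE 0.30) and for Ifit1bl2 -0.56 (SE 0.42), neither called.

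**Figure D5:**
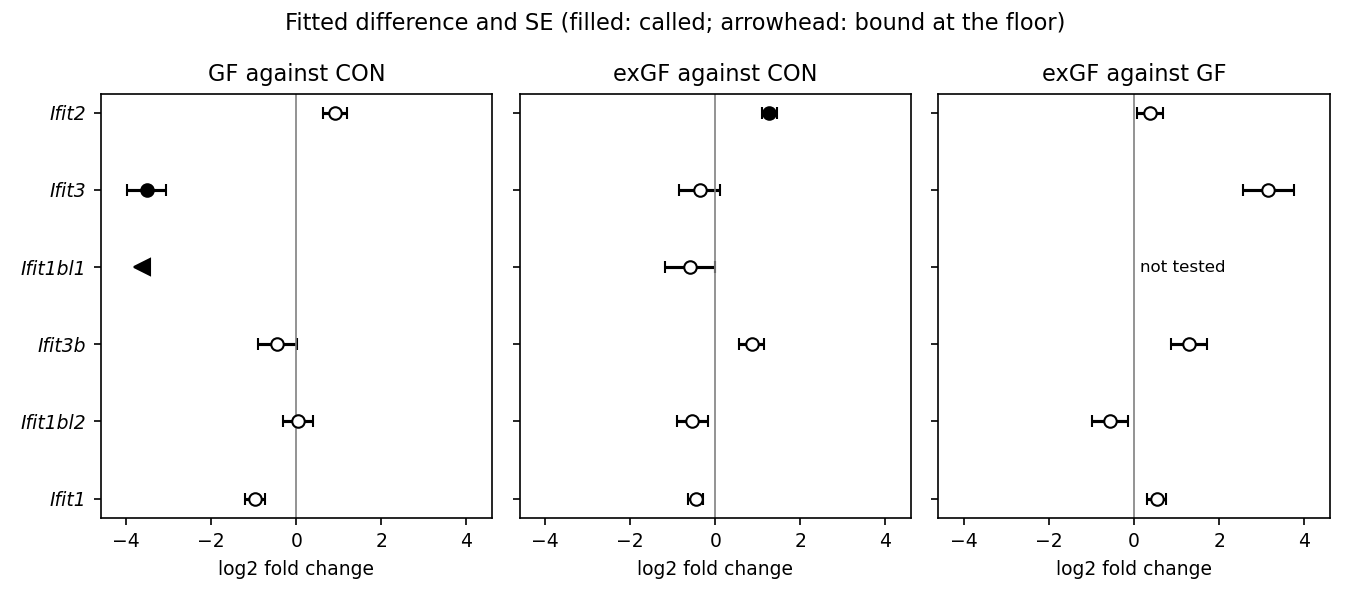
Fitted log2 fold change (points) with its SE (bars) of each member in the 3 comparisons, with filled points for called genes and an arrowhead for Ifit1bl1 in GF against CON, drawn at its bound from a floor of 3 counts per library. Ifit3 lies far below 0 in GF against CON and far above 0 in exGF against GF, Ifit2 is the only filled point in exGF against CON, and Ifit1bl1 was not tested in exGF against GF.

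The rest of the interferon pathway gave a setting for these genes. Of the interferon genes themselves, none of 11 was tested in any comparison, and the highest counts in any library were 2 for Ifng and 1 for Ifnk, with Ifnb1 and Ifna2 at 0 in all 12 libraries. Of 9 genes of the receptor and its signalling chain, 9 were tested and 0 were called in each comparison, by edgeR or any alternative, and 0 had an unadjusted p under 0.05. Among them the receptor chain Ifnar1 stood at 62.9 ± 2.27 CPM for CON, 64.7 ± 3.59 for GF and 64.7 ± 4.02 for exGF, and the kinase Jak1 at 217 ± 22.6, 220 ± 13.8 and 216 ± 14.9 (SD, n = 4). Of 12 genes that sense RNA or DNA upstream of interferon, 11 were matched and tested and 0 were called in each comparison, with 1, 0 and 1 at an unadjusted p under 0.05 in GF against CON, exGF against CON and exGF against GF.

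Interferon-stimulated genes outside the cluster are the closest relatives by regulation. Of 47 such genes, 42 were tested in GF against CON and 0 were called. The fits with DESeq2, with edgeR on all 12 libraries and with no filter on low counts each called 1, Lgals3bp. At an unadjusted p under 0.05, 9 were lower and 0 higher, beside 3.94% lower and 4.75% higher of all tested genes, and the median log2 fold change was -0.21, beside 0.0069 over all tested genes. In exGF against CON 43 were tested, 0 were called by edgeR or any alternative, 4 were lower and 0 higher at that unadjusted level (2.87% and 2.46% of all tested genes), and the median was -0.062, beside -0.0065 over all genes. In exGF against GF 41 were tested, 0 were called by edgeR or any alternative, 5 were higher and 0 lower at that level (3.30% and 3.35% of all tested genes), and the median was 0.14, beside -0.0047. Over the 42 tested genes the log2 fold changes ran from -1.40 to 0.30 in GF against CON. The 5 untested genes had at most 16 counts in any library, and among them Zbp1, a nucleic acid sensor named after its values were seen, averaged 0.335 ± 0.115 CPM in CON and 0.0336 ± 0.0671 in GF (SD, n = 4), with at most 3 counts in a GF library. The most abundant of the list per kilobase were Ifitm3 (10.9 ± 2.23 CPM in CON, 7.92 ± 0.998 in GF), an antiviral membrane protein, Ifi27 (13.8 ± 2.93 and 13.1 ± 1.79), Cmpk2 (34.7 ± 4.32 and 37.1 ± 5.13), a nucleotide kinase, and Stat2 (32.8 ± 1.79 and 36.8 ± 2.91).

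Other annotated genes within 500 kb of the cluster numbered 29, of which 20 were in the table and 8 passed the filter. None of the 8 was called in any of the 3 comparisons, and at an unadjusted p under 0.05 the counts were 0, 0 and 1. DESeq2 and limma-voom called 0 as well, whereas without GFR1 Lipa was called in exGF against GF. The nearest tested gene before Ifit2 was Lipa, the lysosomal acid lipase, 23.2 kb away, at 38.8 ± 7.20 CPM for CON, 42.96 ± 3.77 for GF and 31.8 ± 8.29 for exGF (SD, n = 4). The nearest after Ifit1 was Slc16a12, a membrane transporter, 18.4 kb away, at 2.44 ± 0.498, 1.76 ± 1.18 and 2.06 ± 0.564 CPM. In the edgeR fit of GF against CON no call was made for Ifit2 and Lipa before Ifit3 and Ifit1bl1, or for Ifit3b, Ifit1bl2, Ifit1 and Slc16a12 after them. A missing call does not show that a gene was unchanged. Ifit1 had every GF library below every CON library and was called lower by DESeq2. Ifit2 was called higher without GF replicate 4 and with no filter on low counts.

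Levels of cell type markers differed between the groups as well. In GF against CON, 6 of 8 oligodendrocyte markers were called higher (median log2 fold change 0.82), 2 of 7 meningeal markers lower (Col1a2 and Slc6a13, median -0.53) and 1 of 10 microglial markers lower (C1qb, median -0.15). The summed level of the oligodendrocyte markers ran from 2156 to 2655 CPM for CON, from 3350 to 5634 for GF and from 2139 to 3608 for exGF. That of the meningeal markers ran from 165 to 229, from 104 to 151 and from 127 to 166 CPM, and that of the microglial markers from 397 to 472, from 353 to 397 and from 333 to 367 CPM. Endothelial markers ran from 275 to 312 in CON, from 284 to 312 in GF and from 295 to 335 in exGF, and none was called in any comparison, as was so for neurons, astrocytes, choroid plexus and blood cells. The part of these shifts in the Ifit values was not tested, and in bulk tissue fewer cells of a type and less RNA per cell cannot be told apart.

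The genes whose log2 CPM followed each member most closely over the 12 libraries differed from member to member, and are given as a description over libraries that share groups and depth. For Ifit3 they were Telo2 (Pearson r = 0.942), Mir8094 (0.920) and Nrip2 (0.915), and for Ifit1bl1 Traf1 (0.901), Stag3 (0.900) and Gpsm1 (0.887). For Ifit2 they were Phka1 (0.854), Gm29264 (0.853) and Hsbp1l1 (0.851), and for Ifit1 Fgl2 (0.911) and Flnc (0.896). For Ifit3b they were Syt15 (0.876), Gm20683 (0.854) and Mmp11 (0.852), and for Ifit1bl2 Ccn2 (0.896), Sulf1 (0.856) and Nfe2l3 (0.854). No gene was named for more than 1 member. Some of these genes had few counts over the 12 libraries, so that counting error is large in their correlations. Gm29264 held 1 to 16 counts, Stag3 1 to 19, Traf1 2 to 19, Mir8094 5 to 23 and Hsbp1l1 8 to 27, whereas Telo2 held 226 to 648 and Phka1 251 to 618. Ranked by Spearman correlation of CPM instead, only Phka1 for Ifit2, Mir8094 for Ifit3 and Ccn2 for Ifit1bl2 stayed among the 3 closest.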

How the data were processed

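RNA-sequencing of 12 PFC libraries was analysed. The authors trimmed the read pairs with Trimmomatic 0.32, aligned them with STAR to GRCm38.p3 and counted uniquely aligned pairs per gene of Ensembl with HTSeq-count 0.6.0 without regard to strand. They deposited raw counts without normalization. Pairs aligned to several places (13.0% to 19.2% of each library), outside genes or on several genes stayed out of library sizes and tests. Depth differed between libraries, and the SD over pools includes counting error, which is large for members with few counts. Nothing states that pools of a group came from separate litters or cages, so p-values measure only the spread between these pools.

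Genes were named from a GRCm38 annotation, which matched 40254 of 41388 identifiers. Library scaling, filtering and testing used edgeR 4.0.16 (TMM, filterByExpr, quasi-likelihood, Benjamini-Hochberg) in R 4.3.3, with DESeq2 1.42.0 and limma 3.58.1 as alternatives, and were tested on simulated data. The replicate numbers of CON and GF were checked for pairing. Log2 CPM used a prior count of 1. Shared sequence was searched over all annotated transcripts, and promoters came from RefSeq. The members and lists were chosen with earlier results of these data known. Named beside the 6 members were the 3 genes most like each member, called genes or the 4 most abundant of the pathway lists, and the nearest tested gene on each side. The result of 1 gene is not reported here. Of the marker lists only called genes were named. Of the interferon-stimulated genes, 8 also stand in the signalling or sensing list.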

Additional observations from a re-analysis of the deposited data

Results flagged for a closer look

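Of 21 sets of 4 libraries (6 members and the mean of the interferon-stimulated genes outside the cluster, in 3 groups), 1 held a library far from the other 3, and chance sets about 1 in 20 such groups apart. The mean log2 CPM of 43 interferon-stimulated genes, relative to the CON mean, was -0.20 in CON replicate 4, against 0.048 to 0.080 in the other CON libraries. In GF it ran from -0.40 to -0.16, and in GFR1 to GFR4 it was 0.042, -0.22, -0.069 and -0.20. CON replicate 4 thus lay within the GF and exGF ranges, and GFR1 was the highest exGF library. In CON replicate 4 Ifit1bl1 was the highest of the 4 CON libraries at 3.31 CPM and Ifit1 the lowest at 2.63 CPM. No Ifit gene on its own held such a library in any group.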

How the results depend on the processing

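With 2 members called in GF against CON, the count was 4 with no filter on low counts (Ifit1 and Ifit2 added) and 0 when at least 10 counts were required in every library, which removed Ifit3 and Ifit1bl1, and it ranged from 2 to 3 when a library was left out. In exGF against CON the 1 called member became 0 in the fits of all 12 libraries by edgeR and by DESeq2, and was 1 whichever library was left out. In exGF against GF the count of 0 became 2 with no filter on low counts, 1 by DESeq2 on the 2 groups and 1 by DESeq2 on all 12 libraries, and ranged from 0 to 2 when a library was left out, with 2 only without GFR1. The calls in GF against CON and in exGF against GF describe contrasts that chose the cluster. Apart from the filters and left-out libraries, the cause of these shifts was not tested. Of 289 alternative fold changes of members, 271 kept their direction and their side of the threshold, 10 passed it only under the alternative, 2 lost it and 6 changed sign. The sign changes were those of Ifit1bl2 in GF against CON (-0.056 by limma-voom, and -0.16 to 0.27 over libraries left out) and of Ifit3 in exGF against CON (-0.67 to 0.018 over libraries left out, positive without CON replicate 2). The replicate numbers did not pair the CON and GF libraries, with correlations of deviations from -0.054 to 0.026. With the replicate number as a block, 2 members were called in GF against CON, among 51 called genes in place of 39. Depth limits Ifit1bl1 in GF, where 3 counts are the floor.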
